A study of Mus musculus with 6 samples.

Results

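Genes of the Hoxa cluster on mouse chromosome 6 and their neighbour Evx1 were examined for 2 histone marks in colonic organoids. The set holds 10 of 21924 annotated protein-coding genes, namely Hoxa3, Hoxa4, Hoxa5, Hoxa6, Hoxa7, Hoxa9, Hoxa10, Hoxa11, Hoxa13 and Evx1. They were chosen by their position in the cluster and selected on the promoter peak calls of these same 4 lists, with earlier results of the lists known, so their mark states are a description and carry no test. The organoids were epithelial cultures from the colon of C57BL/6 mice, grown without TNFα (wt) or with TNFα, an inflammatory cytokine, at 40 ng/ml for 3 weeks (wt+TNFα). H3K4me3 and H3K27me3 were measured by ChIP-seq in 1 library per condition and mark, with 1 input library per condition. No value below therefore has a replicate error, and a difference between wt and wt+TNFα is a difference between single libraries. The lists hold called peaks, so a gene with no peak had no enrichment that passed the peak caller, which does not show that the mark was absent.

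Hox genes encode homeodomain transcription factors that give cells their position along the head-to-tail axis, and they lie in clusters whose gene order follows that axis. H3K4me3 is placed by Trithorax-type complexes at promoters that are open for transcription, and H3K27me3 is placed by Polycomb repressive complex 2 over silent developmental genes. In a Hox cluster the marks often form adjoining domains, and promoters that carry both in one culture are called bivalent. Adult gut epithelium keeps the Hox state of its position, and the 5′ Hox genes, such as Hoxa13, belong to the hindgut. Evx1, an even-skipped type homeodomain factor, lies beyond Hoxa13 at the 5′ end of the cluster and is transcribed away from it.

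The sequences on which the differences between wt and wt+TNFα turned are shown here, together with the promoter of Hoxa13, which had the highest CpG count of the 9 members with a RefSeq promoter. They are from RefSeq, build GRCm38.p6, and promoters run from 250 bases before the start to 30 after it. At Evx1 (chr6:52313248-52313527, plus strand), capitals mark the 212 bases under an H3K4me3 peak in wt+TNFα and not in wt. The coding part of Evx1 exon 1 is shown over its first 300 bases (chr6:52313845-52314144, plus strand), which lay under H3K4me3 and H3K27me3 together in wt, and capitals mark its 20 CpG dinucleotides. At Hoxa5 (chr6:52204558-52204837, minus strand), capitals mark the 262 bases under H3K4me3 in wt and not in wt+TNFα. At Hoxa13 (chr6:52260851-52261130, minus strand), capitals mark the 40 CpG dinucleotides.
Evx1 promoter: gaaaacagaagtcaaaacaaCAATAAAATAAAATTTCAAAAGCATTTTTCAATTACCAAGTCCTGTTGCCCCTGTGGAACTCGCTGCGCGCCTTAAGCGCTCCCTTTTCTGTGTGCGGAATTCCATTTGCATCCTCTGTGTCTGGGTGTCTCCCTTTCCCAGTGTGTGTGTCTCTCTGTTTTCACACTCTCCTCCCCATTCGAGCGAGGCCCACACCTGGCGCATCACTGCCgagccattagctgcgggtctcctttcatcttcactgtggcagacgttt
Evx1 exon 1, coding: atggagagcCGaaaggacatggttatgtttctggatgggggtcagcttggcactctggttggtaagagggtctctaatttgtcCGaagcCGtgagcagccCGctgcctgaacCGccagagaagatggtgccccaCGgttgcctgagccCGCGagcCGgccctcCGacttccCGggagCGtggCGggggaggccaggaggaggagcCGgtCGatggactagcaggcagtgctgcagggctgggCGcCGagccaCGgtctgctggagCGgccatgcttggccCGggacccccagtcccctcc
Hoxa5 promoter: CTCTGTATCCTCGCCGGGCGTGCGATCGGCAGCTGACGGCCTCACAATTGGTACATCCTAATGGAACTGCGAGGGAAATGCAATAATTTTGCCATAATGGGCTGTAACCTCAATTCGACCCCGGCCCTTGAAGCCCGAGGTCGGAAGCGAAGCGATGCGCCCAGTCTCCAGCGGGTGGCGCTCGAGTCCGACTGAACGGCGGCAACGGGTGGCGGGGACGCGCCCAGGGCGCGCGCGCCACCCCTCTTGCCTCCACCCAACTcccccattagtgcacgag
Hoxa13 promoter: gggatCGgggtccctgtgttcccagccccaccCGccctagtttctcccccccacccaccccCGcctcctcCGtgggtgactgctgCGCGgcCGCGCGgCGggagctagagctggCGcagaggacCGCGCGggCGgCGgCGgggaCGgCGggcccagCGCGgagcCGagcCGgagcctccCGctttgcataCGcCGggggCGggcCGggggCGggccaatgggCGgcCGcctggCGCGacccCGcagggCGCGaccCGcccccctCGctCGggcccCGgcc

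As a check of the labelled cell type, 8 of 9 genes typical of colonic epithelium had an H3K4me3 promoter peak in wt (not Lgr5) and 7 in wt+TNFα (not Lgr5 or Krt20), and 0 of 12 genes typical of blood, mesenchymal, endothelial or neural cells had one in either. The lists of the conditions also differed on the sex chromosomes. On chromosome X, H3K27me3 covered 0.597 Mb in wt but 74.7 Mb in wt+TNFα. On chromosome Y, H3K4me3 was called in 3 peaks in wt and in 0 in wt+TNFα. The labels give neither the sex nor the animal of origin of the cultures, so the cultures may differ in these, and such a difference cannot be told apart from TNFα in any comparison below. The part of sequencing depth in the values on chromosome 6 was not tested.

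From Hoxa3 to Hoxa13 the cluster carried H3K4me3 and no H3K27me3 peak, in wt as in wt+TNFα. All 10 genes had an H3K4me3 peak within 1000 bp of an annotated transcript start in wt, against 50.5% of all protein-coding genes, and all 10 in wt+TNFα, against 51.2%. In wt, Evx1 alone among the 10 had H3K27me3 called at its promoter, against 21.7% of all protein-coding genes. In wt+TNFα none of the 10 did, against 29.5% of all. Over gene bodies the result was the same: the 9 Hoxa genes had 0% of their length under H3K27me3 in both conditions.

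**Figure D1:**
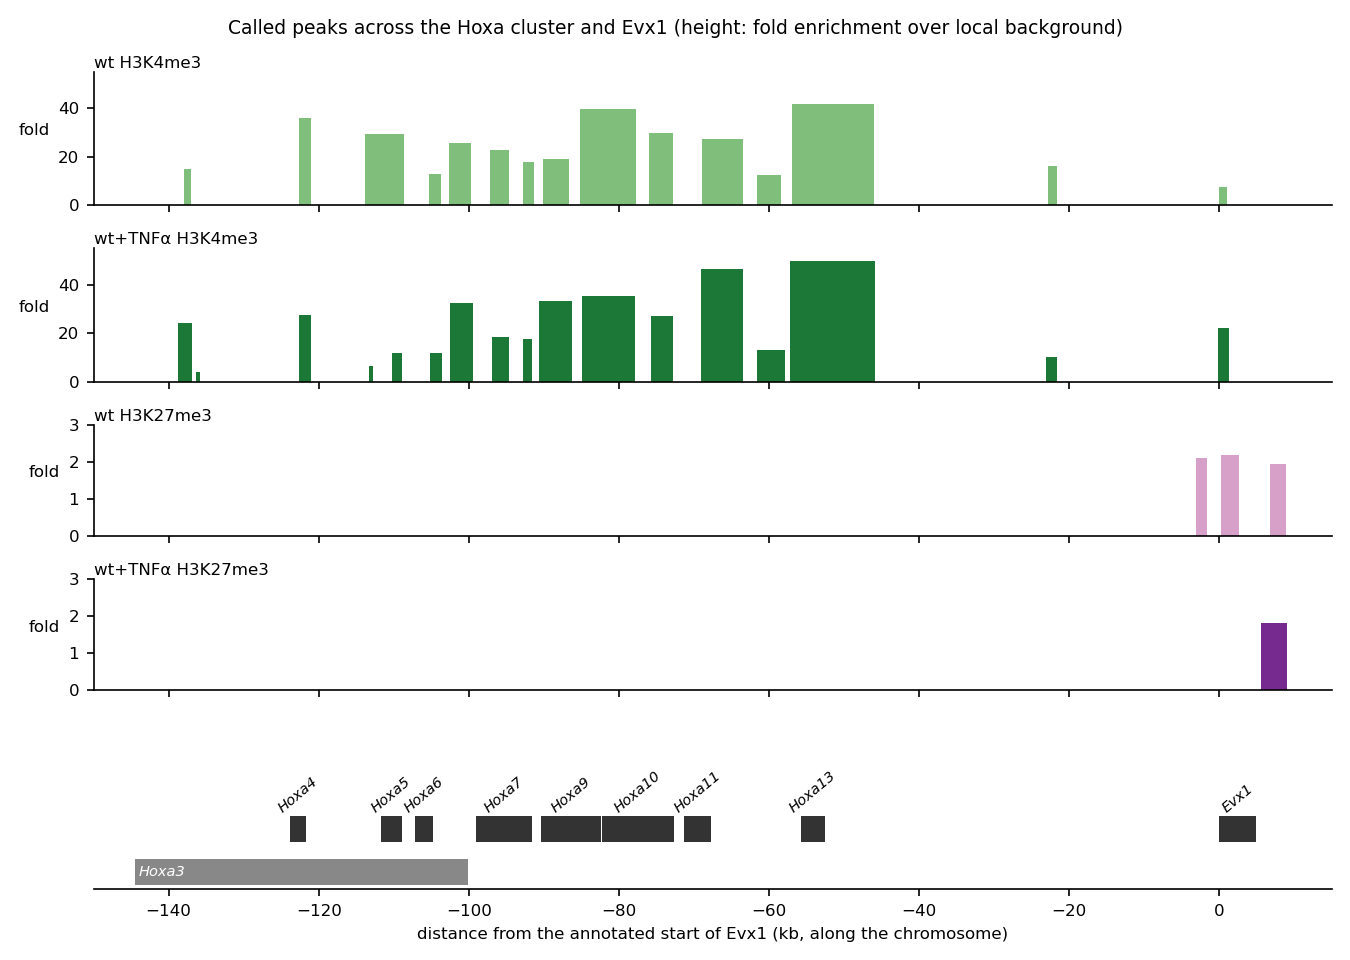
Called peaks of each list from Hoxa3 to Evx1. The x axis is the distance from the annotated start of Evx1 in kb, the height of each bar is the peak's fold enrichment over local background (axes to 55 for H3K4me3 and to 3 for H3K27me3), its width is the called region, and the bottom row shows the gene bodies. H3K4me3 peaks overlap each Hoxa gene shown in both conditions, most of them over part of the gene. H3K27me3 peaks lie just upstream of, inside and beyond Evx1 in wt, and only beyond it in wt+TNFα.

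H3K4me3 peaks covered 47.1% of the 91819 bp from Hoxa3 to Hoxa13 in wt (chr6:52169062-52260880, GRCm38) and 46.2% in wt+TNFα. Windows of that length were laid over the autosomes in steps of 10000 bp, away from the cluster, to show how usual this is. They were not matched for genes or starts, and the cluster was chosen with its peaks known, so its rank is a description. Of the 246091 windows, none was covered as much. The highest share was 28.4% in wt and 31.9% in wt+TNFα, and 74.1% and 73.5% of the windows had no H3K4me3 peak at all. A lack of H3K27me3 was common in these windows, at 65.6% in wt and 55.2% in wt+TNFα. Over the full 149317 bp from Hoxa3 to the end of Evx1, H3K4me3 covered 34.8% in wt in 15 peaks and 35.0% in wt+TNFα in 17 peaks. The bases in common, 47282 bp, made up 90.9% of the wt bases and 90.4% of the wt+TNFα bases. H3K27me3 covered 2.58% of that interval in wt and 0% in wt+TNFα.

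The posterior section of the cluster was the more densely covered. From Hoxa9 to Hoxa13, H3K4me3 peaks covered 71.5% of 37781 bp in wt and 74.6% in wt+TNFα, and from Hoxa3 to Hoxa7 30.3% of 52793 bp and 26.5%. Each of the 6 peaks from Hoxa9 to Hoxa13 was at least 3 kb wide in both conditions, while in the whole lists 6.18% of wt and 7.67% of wt+TNFα H3K4me3 peaks were that wide. From Hoxa3 to Hoxa7, 1 peak was at least 3 kb wide in each condition, out of 7 in wt and 9 in wt+TNFα. Counted by gene, 5 of the 10 had a peak of at least 3 kb at the promoter in wt (Hoxa5, Hoxa9, Hoxa10, Hoxa11 and Hoxa13), against 3.64% of all protein-coding genes. In wt+TNFα there were 6 (Hoxa3, Hoxa7, Hoxa9, Hoxa10, Hoxa11 and Hoxa13), against 4.73%, and Hoxa7 was among them because the widened peak of Hoxa9 reached its promoter.

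Fold enrichment was computed separately for each library, so values are set beside their percentile within their own list, where 100 would be the highest. Hoxa13, the most posterior Hox gene of the cluster and a factor of hindgut and limb, lies on the minus strand (chr6:52257694-52260880). Its peak was 10933 bp wide in wt with a fold enrichment of 41.6 (percentile 86.4), and 11363 bp wide in wt+TNFα with a fold enrichment of 49.8 (percentile 95.7). Only 2 peaks of each list were wider. The peak covered 96.1% of Hottip, a long noncoding RNA next to Hoxa13, in wt and 100% in wt+TNFα, and all 3 annotated starts of Hoxa13 lay inside it in both conditions. Hoxa13 also had the highest CpG count among the 9 members with a RefSeq promoter, with 45 CpG and 81.0% G and C in 300 bases (250 before and 50 after the start), above 98.1% of the 32851 promoters in the table. By the ratio of observed to expected CpG, Hoxa5 (1.02) and Hoxa6 (0.923) were above Hoxa13 (0.918).

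Hoxa11, a factor of limb and urogenital development, had its promoters covered over 100% in both conditions. Its peak, which also spans the antisense transcript Hoxa11os, measured 5508 bp in wt and 5593 bp in wt+TNFα. The fold enrichment was 27.1 in wt (percentile 56.1) and 46.4 in wt+TNFα (percentile 92.6), so the width was nearly the same and the height was not. A further peak between Hoxa11 and Hoxa13, at no annotated start, was 3127 bp wide in wt (fold enrichment 12.5, percentile 20.4), and 3700 bp in wt+TNFα with 13.0 (percentile 20.5).

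Hoxa9 and Hoxa10, posterior factors that also act in blood and uterus, shared a peak of 7406 bp in wt and 7080 bp in wt+TNFα, with fold enrichments of 39.5 (percentile 83.1) and 35.1 (percentile 71.7). Mir196b, a microRNA gene that targets Hox transcripts, lies inside this peak (chr6:52230081-52230165, minus strand), and its promoter window was covered over 100% in both conditions. Mir196b and Hottip were singled out after their values were seen. Its mature products are shown because they are the only microRNAs annotated inside the interval, with the seed, bases 2 to 8, in capitals.
mmu-miR-196b-5p: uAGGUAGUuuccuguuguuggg
mmu-miR-196b-3p: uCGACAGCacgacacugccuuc
The 3′ part of Hoxa9 had a peak of its own, 3459 bp wide in wt (fold enrichment 19.2, percentile 35.9), and 4443 bp in wt+TNFα with 33.1 (percentile 66.6). Of the Hoxa9 promoters, 76.1% lay under H3K4me3 in wt and 81.7% in wt+TNFα. Of the Hoxa10 promoters 74.7% and 75.7% did, and both of its most upstream starts lay outside the peaks in both conditions.

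Hoxa7, Hoxa6 and Hoxa4 are factors of the trunk region. Hoxa7 had 59.3% of its promoters under H3K4me3 in wt and 54.2% in wt+TNFα. Its peaks had fold enrichments of 22.6 and 17.6 in wt (percentiles 44.6 and 32.2), and 18.3 and 17.6 in wt+TNFα (percentiles 30.4 and 28.9). Hoxa6 had 75.3% and 68.6% covered, with a fold enrichment of 13.0 in wt (percentile 21.4) and 11.8 in wt+TNFα (percentile 18.0), the lowest of the Hoxa genes in each condition. Hoxa4 had 83.0% and 81.9% covered, with 36.1 in wt (percentile 76.7) and 27.4 in wt+TNFα (percentile 51.1). At these 3 genes the covered share was lower in wt+TNFα than in wt by under 10 percentage points.

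Hoxa3, a factor of the pharyngeal region, has 4 annotated starts spread over a long gene. The starts at 52183855 and 52184874, inside the cluster, had no H3K4me3 within 1000 bp in either condition. The starts at 52213115 and 52213336, which lie between Hoxa6 and Hoxa7, were in a peak of 2916 bp in wt with a fold enrichment of 25.5 (percentile 52.2), and of 3048 bp in wt+TNFα with 32.4 (percentile 64.7). The share of all Hoxa3 promoters covered, 31.5% in wt and 35.8% in wt+TNFα, was the lowest of the set for that reason. Of the 28 annotated starts of the 10 genes, 22 lay inside an H3K4me3 peak in wt and 21 in wt+TNFα, against 39.5% and 40.5% of the 93521 annotated starts of all protein-coding genes. Inside an H3K27me3 peak lay 0 in either condition, against 12.0% in wt and 17.2% in wt+TNFα.

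**Figure D2:**
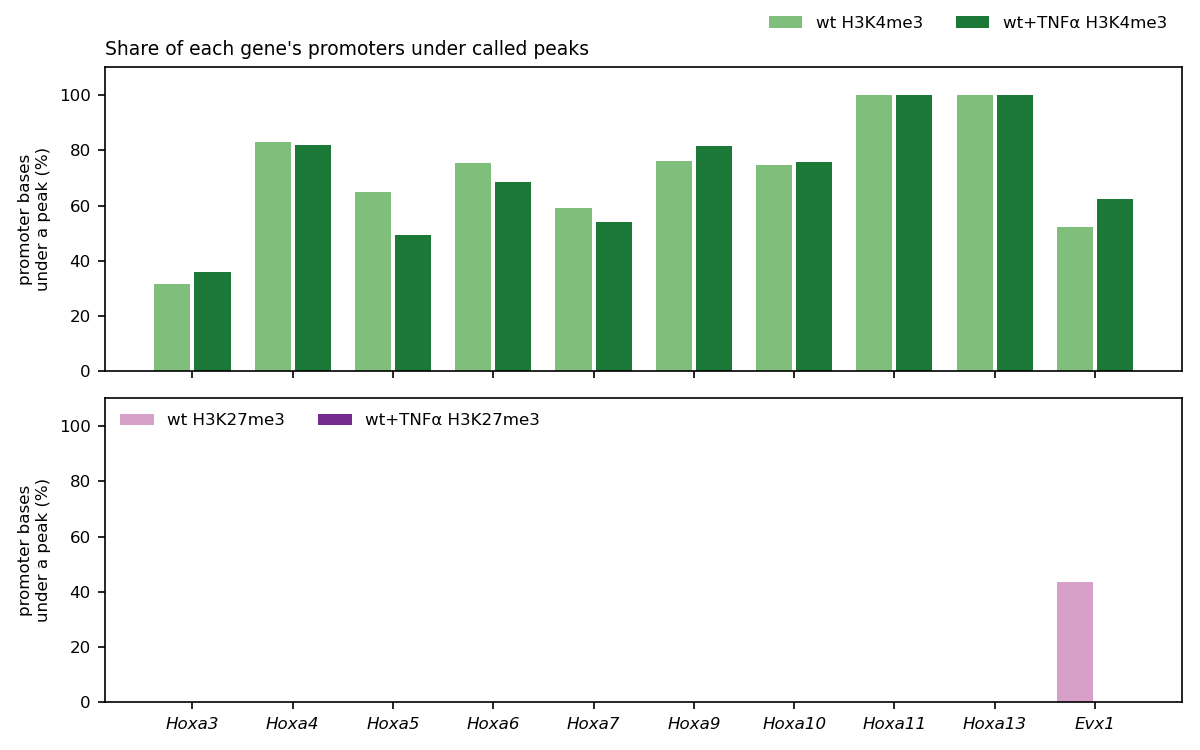
Share of promoter bases (within 1000 bp of any annotated start) under called peaks for each of the 10 genes, in percent, with H3K4me3 in the upper panel and H3K27me3 in the lower, wt in light and wt+TNFα in dark bars, 1 library each. Evx1 alone has an H3K27me3 bar, 43.4% in wt, and Hoxa5 has the largest decrease in H3K4me3, from 64.8% to 49.4%.

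Hoxa5, which acts in lung and gut development, had the largest loss of H3K4me3 width in the interval. In wt, 1 peak of 5254 bp covered the gene (chr6:52199630-52204883) with a fold enrichment of 29.3 (percentile 61.9), and only 58 peaks of the wt list were wider. In wt+TNFα, 2 separate peaks remained, 1 of 627 bp with a fold enrichment of 6.25 (percentile 4.53) and 1 of 1301 bp with 11.9 (percentile 18.3). The start of Hoxa5 at 52204587 was inside the wt peak and 12 bp outside the nearest wt+TNFα peak, as the lower-case end of the printed promoter shows. By the highest fold enrichment, wt was 2.47 times wt+TNFα. Among the 11172 wt H3K4me3 peaks that overlapped a wt+TNFα peak, the ratio of wt+TNFα to wt was lower for 0.134%, and the ratio of widths, 0.367, was lower for 0.0806%. A split into 2 or more wt+TNFα peaks was seen for 0.286% of these wt peaks. No H3K27me3 peak lay within 100 kb of the Hoxa5 start in either condition, the nearest being 105790 bp away in wt and 114516 bp in wt+TNFα.

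**Figure D3:**
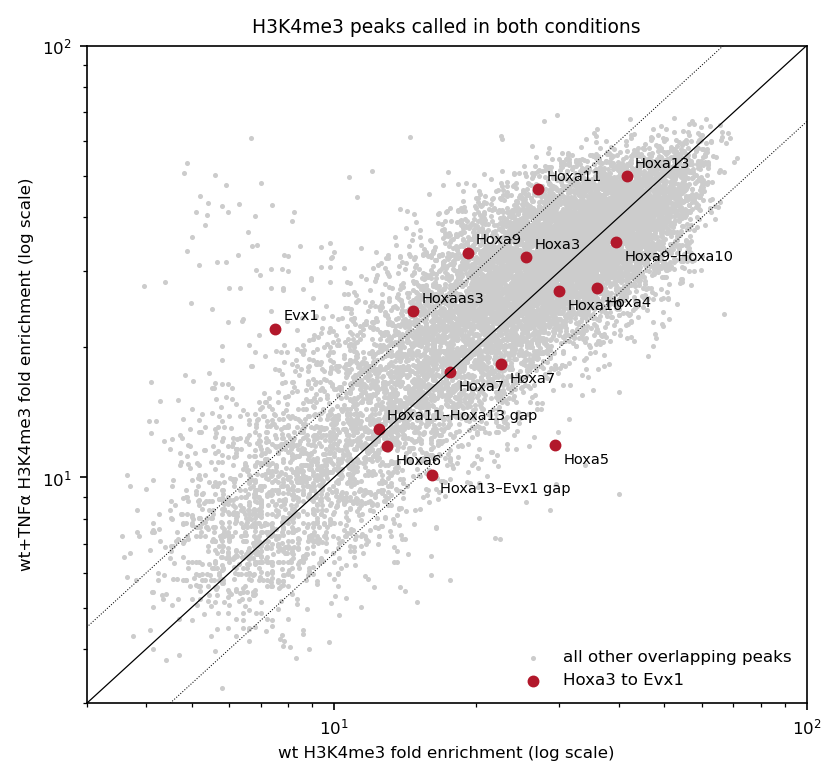
Fold enrichment of H3K4me3 peaks in wt (x axis, log scale) and of the highest overlapping peak in wt+TNFα (y axis, log scale). Grey points are peaks elsewhere, red points the 15 peaks from Hoxa3 to Evx1, the solid line is equality and the dotted lines a ratio of 1.5 in either direction. Evx1 lies above the upper dotted line (7.52 and 22.1) and Hoxa5 below the lower one (29.3 and 11.9).

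Evx1 (chr6:52313498-52318378, plus strand) was the only member that carried both marks in wt, a state found at 5.18% of all protein-coding genes. Its wt H3K27me3 peak (chr6:52313661-52316107) began 163 bp inside the gene and covered 2447 bp, of which 868 bp were exon and 1579 bp intron. The peak took up 43.4% of the promoter bases and 50.1% of the gene body. Its fold enrichment was 2.198 (percentile 67.5) and its −log10 q-value 1.13 (percentile 71.5), so it stood above the middle of the wt H3K27me3 list but had a q-value above 0.01, as did 87.2% of that list. The value listed for a broad peak is an average over the called region, and can thus miss the cutoff at which the region was called. The H3K4me3 peak in wt was 1073 bp wide with a fold enrichment of 7.52 (percentile 8.86), the lowest of the 10 genes, and 892 of its bases lay under the H3K27me3 peak.

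In wt+TNFα, Evx1 carried H3K4me3 alone. The H3K4me3 peak was 1543 bp wide and its fold enrichment was 22.1 (percentile 38.0), which was 2.94 times the wt value, a ratio higher than that of 99.3% of the overlapping H3K4me3 peaks. It contained the whole wt peak and reached 212 bp farther upstream, over the bases in capitals above. No H3K27me3 peak overlapped the gene or its promoters. The nearest one (chr6:52319103-52322476) was 3374 bp wide with a fold enrichment of 1.82 (percentile 30.1) and lay wholly downstream of the gene. An H3K27me3 promoter peak in wt and none in wt+TNFα was found at 1.21% of all protein-coding genes. Evx1os, a noncoding transcript antisense to Evx1 that shares its promoter region, had 65.3% of its promoter bases under H3K27me3 in wt and 0% in wt+TNFα, and 32.2% and 46.4% under H3K4me3.

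The wt+TNFα H3K27me3 list was the longer one, with 60540 peaks against 30594 in wt. On the autosomes it covered 228 Mb against 101 Mb in wt, a ratio of 2.25, and 2.23 on chromosome 6. The absence of a call at Evx1 thus went against the direction of the whole list. The weakest peak of the wt+TNFα list had a −log10 q-value of 0.747 and that of the wt list 0.302, both under the 1.13 of the wt Evx1 peak. When H3K27me3 peaks with a −log10 q-value under 2 were left out, no member had an H3K27me3 promoter peak in wt either, so the call at Evx1 rests on a weakly enriched peak.

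**Figure D4:**
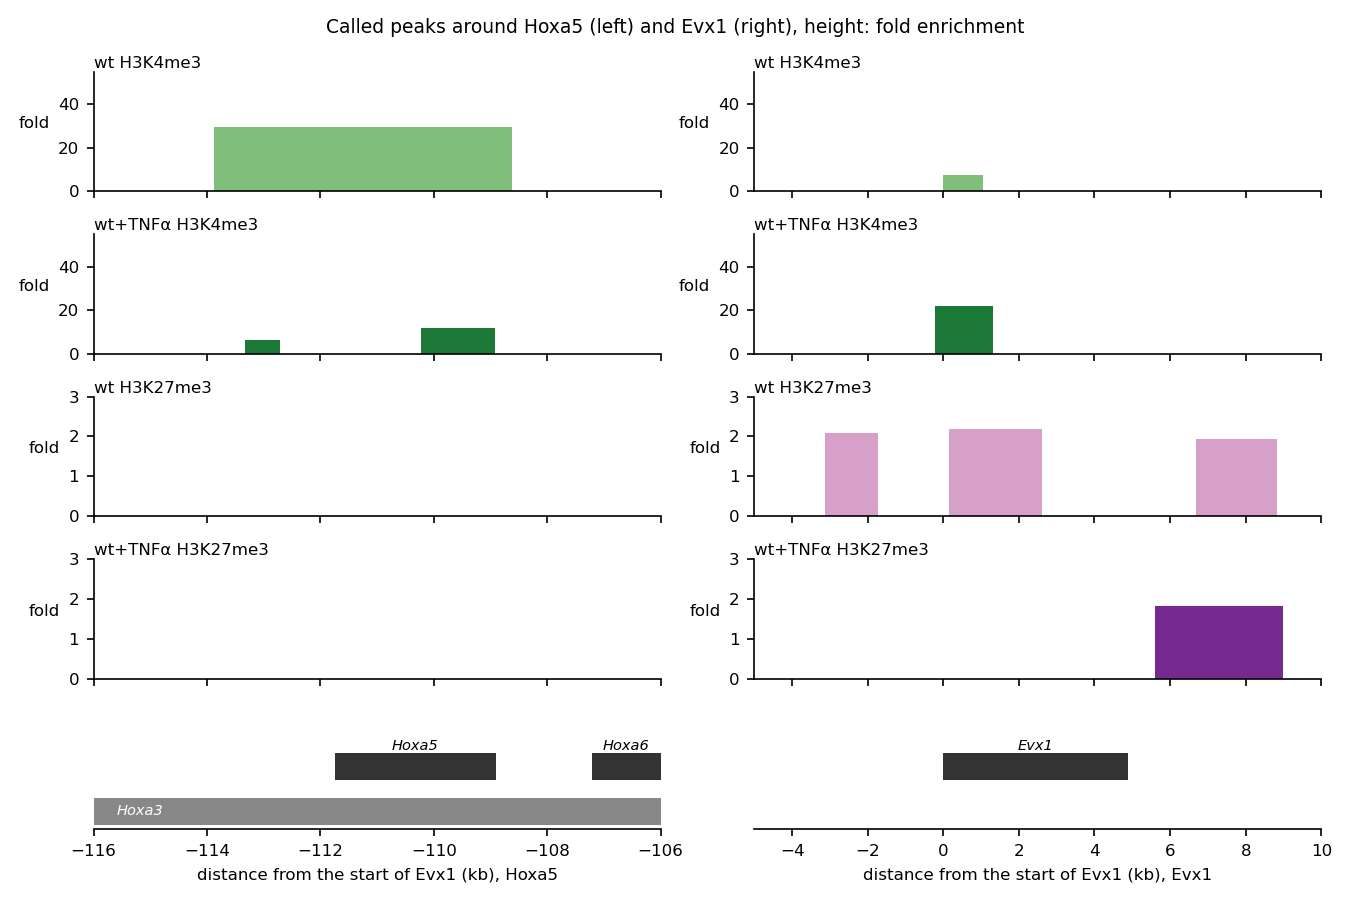
Called peaks around Hoxa5 (left) and Evx1 (right) in the 4 lists, with the distance from the annotated start of Evx1 in kb on the x axis, fold enrichment as bar height and gene bodies in the bottom row. At Hoxa5 the wt H3K4me3 peak of 5254 bp is replaced by peaks of 627 and 1301 bp, and at Evx1 the H3K27me3 peak inside the gene is called in wt only.

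The H3K4me3 changes across the set went in both directions. Of the 10 genes, 6 had promoter bases under H3K4me3 in wt alone (lost), against 21.1% of all protein-coding genes, and 6 had such bases in wt+TNFα alone (gained), against 40.9%. Only a promoter with a peak can lose or gain bases, and all 10 had one by selection. Of the 21924 protein-coding genes, 11066 had a peak in wt and 4633 lost bases. In wt+TNFα 11229 had a peak, and 8972 gained bases. The shares over all genes are thus too low to set beside these 10. All changes at the members were in the extent of a called region, and no whole H3K4me3 peak at a member promoter was called in 1 condition alone. Hoxa7 lost 446 bp and gained 117 bp, Hoxa5 lost 308 bp, Hoxa9 gained 388 bp and lost 49 bp, Hoxa3 gained 228 bp, and Evx1 gained 212 bp. Hoxa6 lost 135 bp, Hoxa10 lost 66 bp and gained 125 bp, and Hoxa4 lost 40 bp and gained 18 bp. Over all protein-coding genes with such a change, the median was 51 bp for a loss and 113 bp for a gain. Hoxa11 and Hoxa13 had neither. H3K27me3 bases were lost at 1 of the 10, Evx1, against 5.22% of all protein-coding genes, and gained at 0, against 20.6%. No member was without an H3K4me3 promoter peak in either condition.

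By peak rather than by gene, fold enrichment was at least 1.5 times higher in wt+TNFα than in wt for 4 of the 15 wt peaks in the interval, against 15.1% of all overlapping H3K4me3 peaks. These were the peaks of Evx1, Hoxa9 (ratio 1.73), Hoxa11 (1.72) and the antisense transcript Hoxaas3 (1.65). It was at least 1.5 times higher in wt for 2 of the 15, against 4.82%, namely the Hoxa5 peak and a peak with no annotated start between Hoxa13 and Evx1, where wt was 1.59 times wt+TNFα. The other 9 peaks lay between these limits, and the median ratio over all overlapping peaks was 1.08, with quartiles of 0.893 and 1.32. One weak H3K4me3 peak of 511 bp was called in wt+TNFα alone, at the protein-coding gene 5730596B20Rik, which is named after its values were seen, with a fold enrichment of 3.78 (percentile 0.0336).

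The nearest H3K27me3 peaks on either side of the cluster stood far from the Hoxa genes. In wt these were short, from 52057242 to 52057726 on the side of Hoxa3 and 1401 bp wide on the side of Evx1. The stretch free of H3K27me3 peaks was 252650 bp long in wt, from 52057726 to 52310377, and 256737 bp in wt+TNFα, from 52062365 to 52319103. On the side of Hoxa3, its edge lay at -255772 bp from the Evx1 start in wt and -251133 bp in wt+TNFα. With −log10 q-values of at least 2 that edge lay at -543369 bp and -251133 bp. On the side of Evx1, its edge lay at -3121 bp from the Evx1 start in wt, upstream of it, and at 5605 bp in wt+TNFα, downstream of it, so Evx1 fell outside the free stretch in wt and inside it in wt+TNFα. The wt peak that sets this edge had a −log10 q-value of 0.694, and the lowest value listed in wt+TNFα was 0.747. With only the peaks above the median −log10 q-value of each list, the edge lay at 163 bp in wt and 487861 bp in wt+TNFα, and with −log10 q-values of at least 2 at 747608 bp and 487861 bp. Under that last filter the free stretch was longer in wt than in wt+TNFα. With all peaks, the distance from the end of the Hoxa13 peak to the first H3K27me3 base on the side of Evx1 was 42960 bp in wt and 51430 bp in wt+TNFα. The marks therefore did not meet at Hoxa13. From the last H3K4me3 peak before that edge to the edge itself the gap was 18556 bp in wt and 4292 bp in wt+TNFα. Hoxa4 was the member farthest from H3K27me3, at 118624 bp in wt and 127350 bp in wt+TNFα.

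Next to the set, Hoxa2, a hindbrain factor and the nearest protein-coding gene on the side of Hoxa3, had no peak of either mark. Hibadh, a mitochondrial enzyme gene and the nearest one beyond Evx1, had 18.1% of its promoters under H3K4me3 in wt and 18.2% in wt+TNFα and no H3K27me3. Of the 22 other annotated genes that overlap the interval, 20 are noncoding, and 6 of these had a peak edge within 1000 bp of a start: Hoxaas3, Hoxa11os, Gm27543, 9530018H14Rik, Gm27866 and Evx1os.

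**Figure D5:**
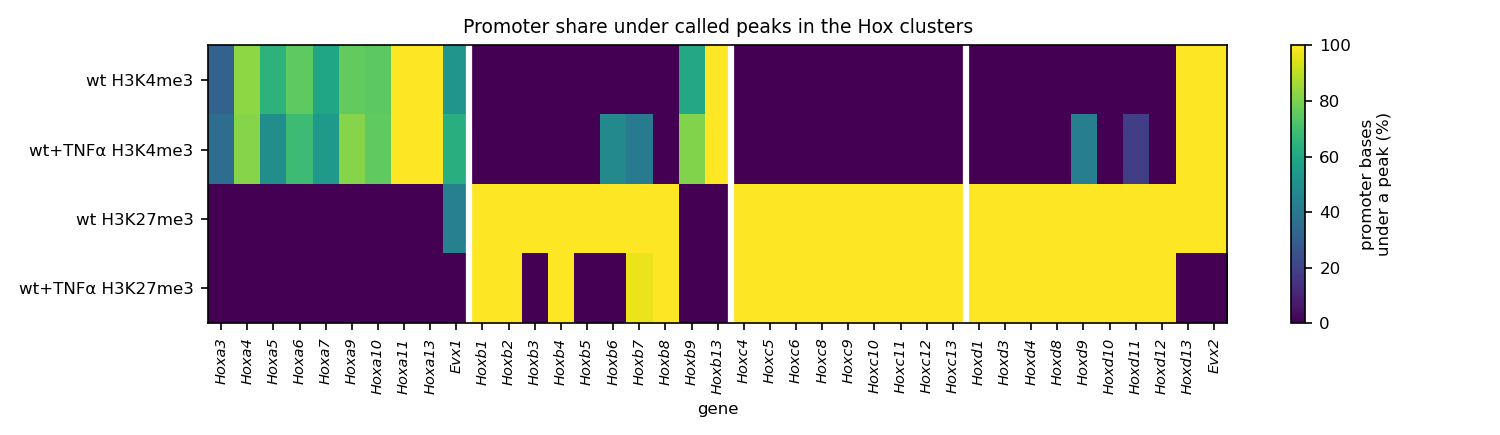
Share of promoter bases under called peaks, from 0% (dark) to 100% (bright), for the Hoxa genes with Evx1 and the Hoxb, Hoxc and Hoxd genes with Evx2 (columns) in each of the 4 lists (rows). The 9 Hoxa genes shown have H3K4me3 at their promoters and no H3K27me3 in both conditions, while most genes of the other clusters are under H3K27me3.

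The other Hox clusters, measured in the same way, were mostly under H3K27me3 in wt. It covered 97.0% of Hoxb1 to Hoxb9 in wt and 43.1% in wt+TNFα. From Hoxc4 to Hoxc13 it covered 100% in both, and from Hoxd1 to Evx2 100% and 81.5%. An H3K4me3 promoter peak was present at 2 of 10 Hoxb genes, 0 of 9 Hoxc genes and 2 of 10 genes of the Hoxd cluster with Evx2 in wt, and at 4, 0 and 4 in wt+TNFα. An H3K27me3 promoter peak was present at 8, 9 and 10 of them in wt and at 5, 9 and 8 in wt+TNFα. Over all protein-coding genes the shares in wt and wt+TNFα were 50.5% and 51.2% for H3K4me3, and 21.7% and 29.5% for H3K27me3. Evx2, the paralog of Evx1 beside Hoxd13, was under both marks over 100% of its promoters in wt and under H3K4me3 alone in wt+TNFα, as Evx1 was. Its H3K4me3 fold enrichment was 12.0 in wt (percentile 19.4) and 25.4 in wt+TNFα (percentile 46.2). Hoxd13 also had both marks over 100% of its promoters in wt and H3K4me3 alone in wt+TNFα, with 24.7 (percentile 50.3) and 38.5 (percentile 79.1). Among the paralogs of Hoxa13, which were compared after their values were seen, Hoxb13 was like Hoxa13, with H3K4me3 over 100% and H3K27me3 over 0% in both conditions. Hoxc13 was the opposite, with H3K27me3 over 100% and no H3K4me3.

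In the Hoxb list the largest changes were at Hoxb3, Hoxb5 and Hoxb6, which went from 100% to 0% under H3K27me3. H3K4me3 went from 0% to 46.9% at Hoxb6 and from 0% to 40.8% at Hoxb7. In the Hoxd list, beside Hoxd13 and Evx2, H3K4me3 went from 0% to 42.8% at Hoxd9 and to 18.5% at Hoxd11. Hox proteins bind DNA with TALE cofactors of the Meis, Pbx and Pknox families. Of these genes, 7 of 9 had an H3K4me3 promoter peak in each condition, against 50.5% of all protein-coding genes in wt and 51.2% in wt+TNFα. H3K27me3 promoter bases were gained at 4 of the 9, against 20.6% of all. The largest changes among them were in H3K27me3, which covered more in wt+TNFα at Meis3 (27.2% and 66.9%), Pknox2 (55.5% and 95.1%), Meis1 (68.1% and 100%) and Meis2 (51.7% and 65.9%). Cdx factors and retinoic acid receptors regulate Hox genes in the embryo. Of 6 genes for them, 4 had an H3K4me3 promoter peak in wt and 5 in wt+TNFα, against 50.5% and 51.2% of all protein-coding genes. Cdx4, which lies on chromosome X, where the H3K27me3 lists differed throughout as given above, went from 41.2% to 100% under H3K27me3. Rarg, a retinoic acid receptor, went from 21.6% to 0%. H3K4me3 went from 0% to 11.2% at Rarb and from 38.3% to 46.4% at Rara, which encode the other receptors of that family.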

How the data were processed

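ChIP-seq of H3K4me3 and H3K27me3 was done on mouse colonic organoids of the wt and wt+TNFα conditions, as 1 library for each mark and condition. Samples were grouped by their titles. The labels planned a higher read number for H3K27me3 than for H3K4me3 and input. The lists hold no read counts, so the number of reads behind a peak is not known here. By library, the study's reporting summary gives nearly equal totals for H3K27me3 in both conditions, and more reads for the wt+TNFα H3K4me3 and input libraries than for wt. The submitters' processing notes name BWA 2.2, SAMtools 1.11 and MACS2 2.1.0, and the paper's reporting summary names another MACS2 version. The names of every list but wt+TNFα H3K27me3 refer to a spike-in, which the study's methods do not mention.

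The deposited lists give each peak on GRCm38/mm10 with a fold enrichment, a ratio of ChIP signal to local background that MACS2 computed for the authors per library. They also give −log10 p-values and −log10 q-values as deposited. The reporting summary names a broad cutoff of 0.01 for H3K27me3, and MACS2 lists for a broad peak the average over its region, so listed q-values above that cutoff occur and the q-value filter used here is not the authors' cutoff. The score column and the summit offset deposited with them were not used for any result.

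Peaks were intersected with GENCODE vM21 (55450 genes, 55341 symbols, 141767 transcripts), using promoters of 1000 bp on each side of every annotated start and a minimum overlap of 1 bp, with Python 3.11.15, numpy 2.4.6 and pandas 2.3.3. Background shares are over the 21924 protein-coding symbols. H3K4me3 peaks of wt were paired with the wt+TNFα peaks they overlap, taking the highest fold enrichment and the summed width of the latter. For 9 of the 10 genes RefSeq promoters were at hand, and Hoxa4 was not matched. The call of promoter bases as lost or gained was tested on simulated peaks, and the other steps were not. With 1 library per condition no test was run.

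The 10 genes and all lists were chosen with earlier results of these data known. Besides them, the text names the nearest protein-coding gene on each side, noncoding genes of the interval with a peak edge in the promoter, and at most 4 genes per other list, those with the largest change of promoter share. Exceptions are stated. Alternatives changed the promoter size, the overlap, the subtraction of bases or whole peaks, the q-value filter and the covered length.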

Additional observations from a re-analysis of the deposited data

How the results depend on the processing

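Of 88 values of 16 results under 9 alternative settings, 66 stayed within limits and 22 moved. The limits were a factor of 1.5 for counts, the exact 95% binomial interval for shares and no change at all for edges. The number of members with H3K4me3 lost went from 6 to 3 with promoters of 500 bp, to 2 with an overlap of at least 200 bp and to 0 when whole peaks were subtracted. The number with H3K4me3 gained went from 6 to 3 with an overlap of at least 200 bp, 0 with whole peaks and 3 with those peaks whose −log10 q exceeded the median of their own list. These counts thus rest on shifted peak edges.

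With H3K27me3 peaks of −log10 q at least 2, the members with a wt H3K27me3 peak went from 1 to 0, those that lost H3K27me3 from 1 to 0, and the wt share of Hoxa3 to Evx1 to 0%. Edges are given from the Evx1 start. Under that filter the wt edges lay at 747608 bp on the Evx1 side and -543369 bp on the Hoxa3 side, and the wt+TNFα edge on the Evx1 side at 487861 bp, against 5605 bp.

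With peaks above the median −log10 q, 7 members had an H3K4me3 promoter peak in wt and 6 in wt+TNFα, against 10 in each, H3K4me3 covered 24.6% of Hoxa3 to Evx1 in wt and 21.1% in wt+TNFα, and wt H3K27me3 1.64%. The wt edges lay at 163 bp and -463711 bp and the wt+TNFα edge on the Evx1 side at 487861 bp. With equal covered length on the autosomes, wt+TNFα H3K4me3 covered 32.3%, and the wt+TNFα edges lay at 547844 bp and -463624 bp. The wt+TNFα edge on the Hoxa3 side stayed at -251133 bp under both q-value filters, and the other edges moved under them. The cause of the other moves was not tested. Without replicates or read counts, no difference has an error. No paired analysis was possible because each condition and mark has 1 library and the labels give no replicate numbers.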
